A study of Mus musculus with 12 samples.

Results

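The comparison was of microglia that had lost Tgfbr2, the gene of the type II receptor for TGF-beta, with wild-type microglia. It was drawn from the titles of 6 RNA-seq libraries, 3 of WT and 3 of KO microglia, out of 12 in the series, and was read across all 12519 genes that passed a minimum level. WT cells came from mice homozygous for a floxed Tgfbr2 and without Cre. KO cells came from mice with the same floxed alleles and, on 1 allele of Cx3cr1, the tamoxifen-inducible recombinase CreER. CreER is active in Cx3cr1-expressing myeloid cells, microglia and border macrophages among them. Both genotypes were C57BL/6, and both received 3 daily subcutaneous injections of 5 mg tamoxifen. Brain and spinal cord were taken 18 to 22 days later, and live Ly6C-negative CD11b-positive cells were sorted by F4/80, low for WT and high for KO. The gate, the CreER allele and the loss of 1 intact Cx3cr1 allele thus changed together with the deletion, and their effects cannot be told apart from it. Cells of 1 to 5 mice went into a library, and p-values therefore measure the spread between such pools. The other 6 libraries, 3 WT and 3 KO, were macrophages descended from bone marrow transplanted into irradiated Cx3cr1 CreER/+ R26 DTA/+ recipients, given tamoxifen 6 weeks later and sorted after the same interval.

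Microglia are the resident macrophages of the brain and spinal cord. TGF-beta binds a receptor pair of Tgfbr1 and Tgfbr2, which phosphorylates Smad2 and Smad3, and these enter the nucleus and act on genes together with lineage factors such as PU.1. In the brain this signal is known for keeping microglia distinct from other macrophages.

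Depth was 3421859 to 5916933 gene-assigned reads in the 6 microglia libraries. All levels below are in normalized counts, and a single read equals 0.804 to 1.29 of them, depending on the library. Among 5226 genes with both group means at 100 or more, the median coefficient of variation was 7.80% in WT and 7.20% in KO libraries. Tgfbr2 itself stood at 3172, 3026 and 2495 in WT and 2078, 2256 and 2246 in KO libraries (log2 -0.40 ± 0.10, adjusted p = 0.00515); gene-level values do not resolve the deleted exons. Of the sorted proteins' genes, Adgre1, which encodes F4/80, was at 1575, 1286 and 1367 in WT and 3829.9, 3673 and 4082 in KO libraries, the direction of the gates, and Itgam, which encodes CD11b, at 7834, 7699 and 6838 in WT and 1472, 987 and 2415 in KO libraries. Of 32 microglia markers, 29 fell and none rose, and 8 had a KO mean under 10. Beside this and the marker counts that follow, 20.6% of all tested genes were called lower and 21.9% higher (limma adjusted p under 0.05). All 15 tested markers of border macrophages rose, and 12 of 16 had a WT mean under 10. Markers near 0 in WT microglia passed the minimum level only through libraries where they were higher. Counts of rises among such markers are therefore partly fixed by the filter. Summed, the microglia markers stood at 194482 to 230827 in WT and 47032 to 49244 in KO libraries, and the border macrophage markers at 6404 to 7547 and 47892 to 52716. In sorted pools, fewer cells of a type and less RNA per cell cannot be told apart. Markers of neurons were near 0 in WT libraries (sum 15.9 to 29.6) and higher in KO libraries (122 to 165). Of 6 tested markers 5 were called, a count partly fixed by the same filter. Other lists moved too, and their part in the results was not tested. Of astrocyte markers, 4 of 5 tested rose, Gfap from 1.98 ± 1.93 to 45.2 ± 13.3 and Slc1a2 from 60.6 ± 21.6 to 137 ± 29.9 among them, while Slc1a3 fell and the list's sum went from 649 to 729 in WT down to 265 to 330.4 in KO libraries. Of oligodendrocyte markers 3 of 5 rose and 1 fell (sum 423 to 431 and 504 to 582), and of dendritic cell markers 4 of 7 rose and 2 fell (167 to 201.8 and 215 to 299). Of monocyte markers 2 of 3 rose, Ccr2 to 141.4, 112 and 137 from 31.7, 45.1 and 21.7 and Spn from 5.68 ± 2.88 to 35.3 ± 6.92, and the sum went from 47.6 to 56.7 in WT up to 152 to 199 in KO libraries. Ly6c2 was at 0 in all 6 libraries; the sort took Ly6C-negative cells. Markers of T and NK cells summed to at most 8.85 in any library. The Y-linked Ddx3y was high in 4 pools, at 501, 470 and 508 in KO and 436 in WT replicate 3, and at 0.881 and 1.29 in the other WT pools. Xist stood at 12836 and 12913 in those 2 WT pools and at no more than 4.91 in the other 4 pools. Thus 2 of the 3 WT pools differed in sex from all KO pools, and sex and genotype can be told apart only through WT replicate 3. In 55.2% of all tested genes the WT and KO libraries did not overlap; the genes described below as the largest rises and falls and as list examples were required not to overlap, so their separation says nothing about sex.

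In the model across all genes, 5322 of 12519 were called, 42.5%, at a Benjamini-Hochberg adjusted p under 0.05. These were 2746 genes higher in KO microglia (21.9%) and 2576 lower (20.6%). A change of at least 4-fold was reached by 817 of the higher genes (6.53% of those tested) and 569 of the lower ones (4.55%), and a change of at least 16-fold by 224 and 154. With Ddx3y as a covariate, 4464 of the 5322 calls (83.9%) remained in the same direction. The median change of all tested genes was log2 -0.01. Of the called genes, 2625 (49.3%) differed by less than 2-fold. At the other end, 2505 genes had a 95% confidence interval that lay inside 0.5 log2 units of no change in either direction. Among 6026 genes with a mean of at least 100, where counting error is smaller, 3142 were called (52.1%) and 2167 changed by no more than that bound (36.0%).

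**Figure D1:**
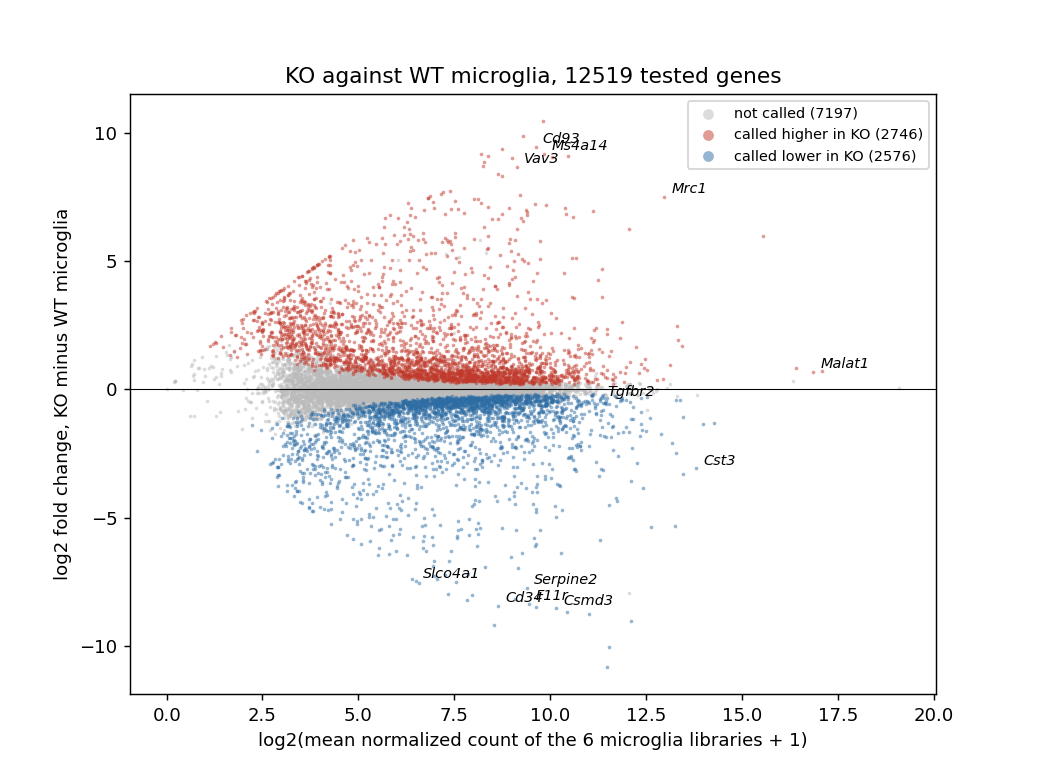
Change of each of 12519 tested genes between KO and WT microglia (vertical axis, log2 fold change) against its mean level over the 6 libraries (horizontal axis, log2 of the normalized count plus 1), with each point 1 gene. Called genes lie on both sides in like numbers, 2746 above and 2576 below the line of no change.

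The largest rises, outside the marker lists of microglia and border macrophages and a set of genes whose changes were already known (such as Mmp13, Adam19 and Ms4a4a, whose rises were of like size), were of genes that WT microglia hardly held. Cd93, a transmembrane receptor with a lectin-like domain (ENSMUSG00000027435, GRCm38 chromosome 2, 148436640 to 148443563, minus strand), stood at 2.64, 0 and 2.07 in WT and 1508, 1676 and 1537 in KO libraries (log2 9.46 ± 0.32, adjusted p = 3.18e-12). Ms4a14, a gene of the Ms4a family of tetraspan-like membrane proteins (ENSMUSG00000099398, chromosome 19, 11301249 to 11314454, minus strand), stood at 3.53, 1.29 and 2.07 in WT and 2204, 1726 and 1599.6 in KO libraries (log2 9.17 ± 0.18, adjusted p = 1.04e-14). Aoah, the acyloxyacyl hydrolase that inactivates bacterial lipopolysaccharide (ENSMUSG00000021322, chromosome 13, 20794113 to 21036617, plus strand), was at 0.881, 0 and 3.1 in WT and 1014, 1030.4 and 1039 in KO libraries (log2 9.02 ± 0.33, adjusted p = 7.98e-12). In each of these genes all KO libraries were far above all WT libraries, and the WT values rest on 4 to 7 reads in all.

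Cd55, the decay-accelerating factor that dissolves complement convertases, had 2 reads in the WT libraries together and stood at 566, 584 and 667 in KO libraries, a ratio of 878 (95% counting interval 243 to 7252). Vav3, an exchange factor that activates Rac, was at 0.881, 2.58 and 2.07 in WT and 1069, 1112 and 1166 in KO libraries (log2 8.67 ± 0.19, adjusted p = 2.04e-14). Mndal and Ifi203, neighbours in the Ifi200 family of DNA-binding proteins, stood at 912, 689 and 790.2 and at 926, 786 and 846 in KO libraries and at no more than 2.07 in any WT library. Their exons overlap on the same strand, so reads could have been split between them. Tlr8, an endosomal receptor for RNA, was at 330.0, 239 and 316 in KO libraries against 2 WT reads, a ratio of 502 (95% counting interval 139 to 4151). Clec4n, which encodes the fungal mannan receptor dectin-2, was at 254, 288 and 311 against 2 WT reads, a ratio of 412 (95% counting interval 114 to 3409.7). Cd300ld, an immunoglobulin-like receptor, stood at 7.05, 2.58 and 7.24 in WT and 1151, 1196 and 1191 in KO libraries. Nlrc4, which builds an inflammasome in response to bacterial flagellin, and Wfdc17, a small secreted protein of the whey acidic protein family, each had 1 WT read. Their KO values were 239, 228 and 229.9 for Nlrc4 and 223, 239.9 and 211 for Wfdc17, which put the ratios at 673 (counting interval 120.4 to 26619.5) and 651 (counting interval 116 to 25734). In the plot of the largest changes by library, KO and WT libraries of these 12 genes lie in separate ranges, as the choice of genes required.

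The largest falls, outside the same genes, were of genes that KO microglia hardly held. Csmd3, a very large membrane protein of CUB and sushi domains (ENSMUSG00000022311, chromosome 15, 47580637 to 48792063, minus strand), stood at 2035, 2088 and 2728 in WT and 3.93, 5.9 and 5.63 in KO libraries (log2 -8.54 ± 0.52, adjusted p = 2.71e-09). Cd34, a sialomucin best known from blood stem cells and vessels (ENSMUSG00000016494, chromosome 1, 194938819 to 194961279, plus strand), stood at 771, 694 and 936 in WT and 1.96, 2.95 and 0 in KO libraries (log2 -8.45 ± 0.40, adjusted p = 1.29e-10). F11r, the junctional adhesion molecule A (ENSMUSG00000038235, chromosome 1, 171437535 to 171464603, plus strand), was at 1466, 1404 and 1277 in WT and 4.91, 1.97 and 3.22 in KO libraries (log2 -8.36 ± 0.43, adjusted p = 3.39e-10). No KO library of these 3 genes exceeded 5.90 normalized counts, and no WT library was under 694.

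Jam2, the junctional adhesion molecule B, had 3 reads in the KO libraries together and stood at 585, 416 and 351 in WT libraries, a ratio of 561 (95% counting interval 191 to 2722). Lhfpl2, a tetraspan membrane protein, was at 1058, 1117 and 1052 in WT and 2.95, 2.95 and 2.41 in KO libraries (log2 -8.16 ± 0.25, adjusted p = 9.16e-13). Mrc2, a receptor that takes up collagen fragments, was at 412, 419 and 661 in WT and 0.982, 0 and 2.41 in KO libraries. These genes were all but absent from KO libraries. Serpine2, which inhibits thrombin and plasminogen activators, stood at 1496, 1484 and 1052 in WT and 5.89, 5.9 and 4.02 in KO libraries (log2 -7.74 ± 0.29, adjusted p = 9.78e-12). Slco4a1, an organic anion transporter, was at 160.4, 178 and 198 in WT and at 0 reads in all KO libraries, so it was at least 194-fold lower. Upk1b, a tetraspanin, and Adamts16, a secreted metalloprotease, had 2 KO reads each against WT values of 263, 350.4 and 180.1 and of 271, 267 and 201.8. Npnt, the integrin ligand nephronectin, was at 342, 279.6 and 285 in WT libraries and at most 1.97 in KO libraries, and Spint1, an inhibitor of matriptase-type proteases, at 465, 432 and 484 and at most 4.91. The choice of these 12 genes required WT and KO libraries not to overlap, so their separation is not a result.

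**Figure D2:**
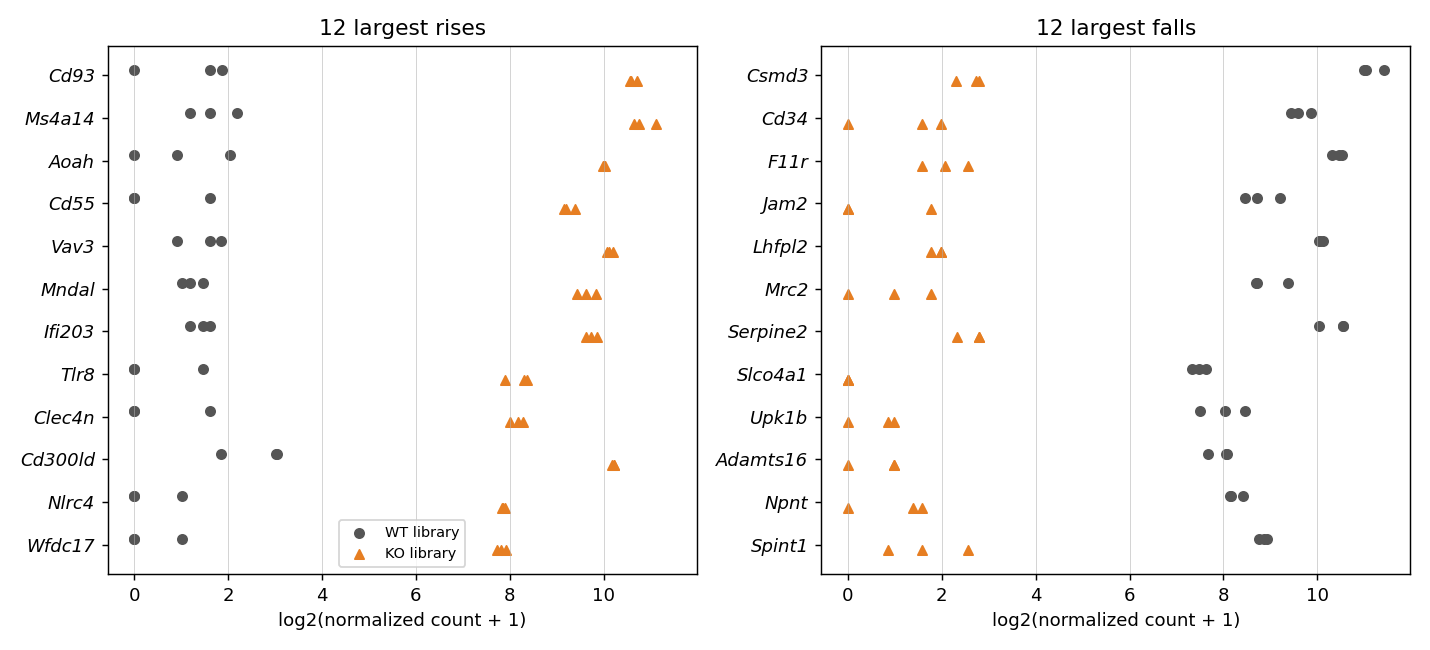
Level of the 12 genes with the largest rises and the 12 with the largest falls, with markers and already known genes left out, in each of the 3 WT (grey circles) and 3 KO (orange triangles) microglia libraries, as log2 of the normalized count plus 1. The WT and KO libraries are apart in every row because the choice of genes required it. Slco4a1 is at 0 in all 3 KO libraries.

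Vessel markers were set beside Cd34, F11r, Jam2 and other falling genes that vessel cells also express. Their sum was 194 to 307 in WT and 106 to 140 in KO libraries, carried by Pecam1 (227, 193 and 115 in WT and 26.5, 29.5 and 27.3 in KO libraries). Cdh5, the endothelial cadherin, stood at 11.5, 11.6 and 9.31 in WT and 6.87, 10.8 and 9.65 in KO libraries. Kdr was at 54.6, 59.3 and 58 in WT and 58.9, 77.7 and 81.2 in KO libraries. Neither was called (limma adjusted p = 0.684 and 0.405). In the whole list, 4 vessel markers were tested, with 1 called lower and 0 higher, beside 20.6% and 21.9% of all tested genes. The part of vessel cells in the falls was not tested. Pdgfrb and Vtn, of pericytes, were at 0 to 4.02 in all 6 libraries.

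Promoter sequence from RefSeq (build GRCm38.p6, the 250 bases before the start) is shown for the 2 largest rises and the 2 largest falls that the table covers, to set the letters beside genes that moved most. Both strands were searched for GTCTAGAC and CAGACA, which Smad proteins bind, the interferon-response motif (GAAA on either side of any 2 bases), TGANTCA of AP-1, GAGGAAGT of PU.1, CACGTG of E-boxes and TGCTGA, the core of Maf sites. Capitals mark the matches.
Ms4a14, chr19:11314455-11314704, minus strand: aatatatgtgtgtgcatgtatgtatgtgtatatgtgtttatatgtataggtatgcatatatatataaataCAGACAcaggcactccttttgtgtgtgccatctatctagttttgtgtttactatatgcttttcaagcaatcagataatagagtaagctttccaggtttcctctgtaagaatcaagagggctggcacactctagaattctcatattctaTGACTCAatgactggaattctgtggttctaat
Aoah, chr13:20793863-20794112, plus strand: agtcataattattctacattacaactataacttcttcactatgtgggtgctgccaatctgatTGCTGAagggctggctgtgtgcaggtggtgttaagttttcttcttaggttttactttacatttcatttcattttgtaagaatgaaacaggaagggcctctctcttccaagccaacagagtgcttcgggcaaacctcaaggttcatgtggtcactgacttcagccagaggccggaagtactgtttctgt
Cd34, chr1:194938571-194938820, plus strand: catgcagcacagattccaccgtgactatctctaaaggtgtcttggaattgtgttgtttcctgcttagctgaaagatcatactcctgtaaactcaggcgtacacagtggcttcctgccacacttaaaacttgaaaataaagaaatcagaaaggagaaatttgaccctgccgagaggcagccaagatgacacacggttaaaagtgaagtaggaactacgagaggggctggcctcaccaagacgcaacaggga
F11r, chr1:171437311-171437560, plus strand: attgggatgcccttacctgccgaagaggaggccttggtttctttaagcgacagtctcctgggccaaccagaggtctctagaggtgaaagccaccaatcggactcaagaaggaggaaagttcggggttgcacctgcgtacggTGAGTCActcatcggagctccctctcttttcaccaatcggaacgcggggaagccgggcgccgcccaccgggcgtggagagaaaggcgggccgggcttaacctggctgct
Ms4a14 held a CAGACA and an AP-1 match, the latter starting 32 bases before the gene's start, Aoah a TGCTGA and F11r an AP-1 match 109 bases before its start. Cd34 held none of these letters in the window. Across all 9030 tested genes with a promoter in the table, 15.6% held CAGACA at a start. It was held by 17.8% of the 579 genes called at least 4-fold higher and by 21.4% of the 370 called at least 4-fold lower. The interferon-response motif stood in 3.53% of all these genes, in 10.5% of the at least 4-fold higher genes and in 2.70% of the at least 4-fold lower ones. AP-1 letters stood in 5.15%, 7.94% and 6.22%, GAGGAAGT in 3.22%, 5.01% and 4.86%, TGCTGA in 15.1%, 19.2% and 16.8%, and CACGTG in 10.2%, 8.29% and 8.65%, in the same order. GTCTAGAC was held by 22 of all these genes, by 1 of the higher and by 0 of the lower ones. A match is a description of letters, not a measured site.

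The 6 largest rises and 6 largest falls were set beside the KO effect in marrow-derived macrophages, taken from the same model with no library in common. All 12 effects differed between the cell origins, with adjusted p-values of the difference from 3.73e-13 for Mndal to 0.00101 for Cd55. These genes were picked for the size of their change in microglia. A smaller effect in macrophages is therefore partly fixed by the choice. Ms4a14 and Mndal, up by over 8 log2 units in microglia, were high in both macrophage genotypes, Ms4a14 at 1299 ± 97.3 in WT and 1548 ± 36.6 in KO macrophages and Mndal at 885 ± 71.7 in WT and 993 ± 99.1 in KO macrophages, with changes of log2 0.26 ± 0.18 and log2 0.16 ± 0.14 that were not called. Cd93 rose in both, by log2 9.46 ± 0.32 in microglia and log2 2.89 ± 0.32 in macrophages. Cd55 and Vav3 rose in both origins too, by log2 4.14 ± 0.60 and log2 2.95 ± 0.19 in macrophages, and Aoah by log2 1.19 ± 0.33. F11r, Lhfpl2 and Cd34 fell in macrophages as well, with changes of log2 -3.21 ± 0.43, log2 -2.86 ± 0.25 and log2 -1.93 ± 0.40. Csmd3, Jam2 and Mrc2 were nearly absent from macrophages of either genotype, with means of at most 5.86, so a fall there could not have been seen.

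**Figure D3:**
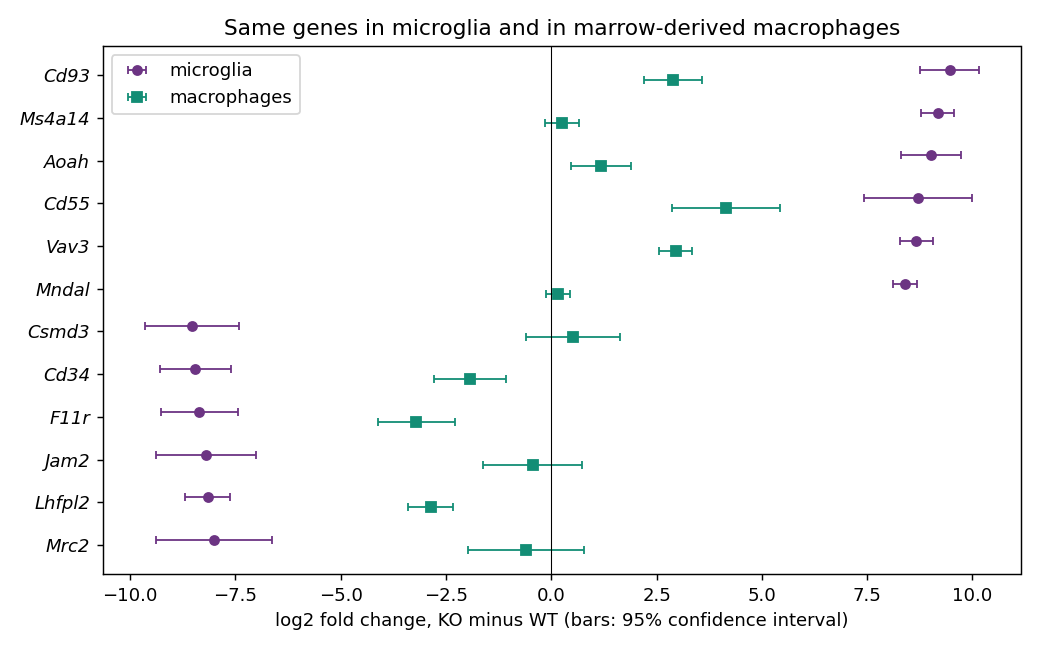
Change between KO and WT (horizontal axis, log2 fold change with 95% confidence interval) of 12 genes in microglia (purple circles) and in marrow-derived macrophages (green squares). Every microglial effect lies farther from 0 than the macrophage effect of the same gene, as for Ms4a14 at 9.17 against 0.26. The genes were picked as the largest changes in microglia, so this order is partly fixed by the choice.

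By amount of transcript rather than by fold, the called genes with the largest gain in mean normalized count were Apoe, mt-Rnr2, Malat1, mt-Rnr1, Mrc1 and Stab1. Stab1, a scavenger receptor, rose from 3087, 3399 and 2816 to 17179.7, 17343 and 16969. Malat1, a nuclear noncoding RNA, rose by log2 0.69 ± 0.22 (adjusted p = 0.0184), from 88543, 100924 and 83605 to 155946, 147126 and 136468, a call lost without KO replicate 1 or 2 or without WT replicate 1 or 3. The 2 mitochondrial ribosomal RNAs gained log2 0.72 ± 0.26 and log2 0.82 ± 0.26 and lost their calls with Ddx3y as a covariate, and in 5 (mt-Rnr2) and 3 (mt-Rnr1) of the 6 fits without 1 microglia library. All mitochondrial transcripts took 3.86% to 4.36% of normalized counts in WT and 5.84% to 7.68% in KO libraries; 3 against 3 libraries allow no two-sided exact permutation p under 0.1, the value found. Among called genes, the largest losses included those of Cst3, Cx3cr1, Csf1r, Ctsd and Macf1. Cst3, the secreted cathepsin inhibitor cystatin C, fell from 27189.6, 24298 and 25282 to 3033, 2949.6 and 3099, and Ctsd, the lysosomal protease cathepsin D, from 18215, 15816 and 17231 to 2932, 3081 and 3078. Csf1r, the receptor for CSF1 on which microglia depend, was at 30229.9, 29160.2 and 25954 in WT and 11530.1, 11035 and 11821 in KO libraries. Macf1, which links actin to microtubules, stood at 21339.8, 23678 and 24272 in WT and 9615, 9177 and 8627 in KO libraries.

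For 27 of the genes taken by the naming rule, exons overlap those of another tested gene, 21 of them only on the opposite strand. No source used here gives the strand setting of the counting, so levels of these genes are less certain. They include Csf1r, Stab1 and Malat1 above and Tgm2, Spns2, Cp, Adcy3, Ptger4, Nlrc5, Dusp1, Yes1, Paox and Acsl3 below.

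Function was then read from 38 lists of genes, each described by its counts beside the 42.5% called, 21.9% higher and 20.6% lower, of all tested genes.

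**Figure D4:**
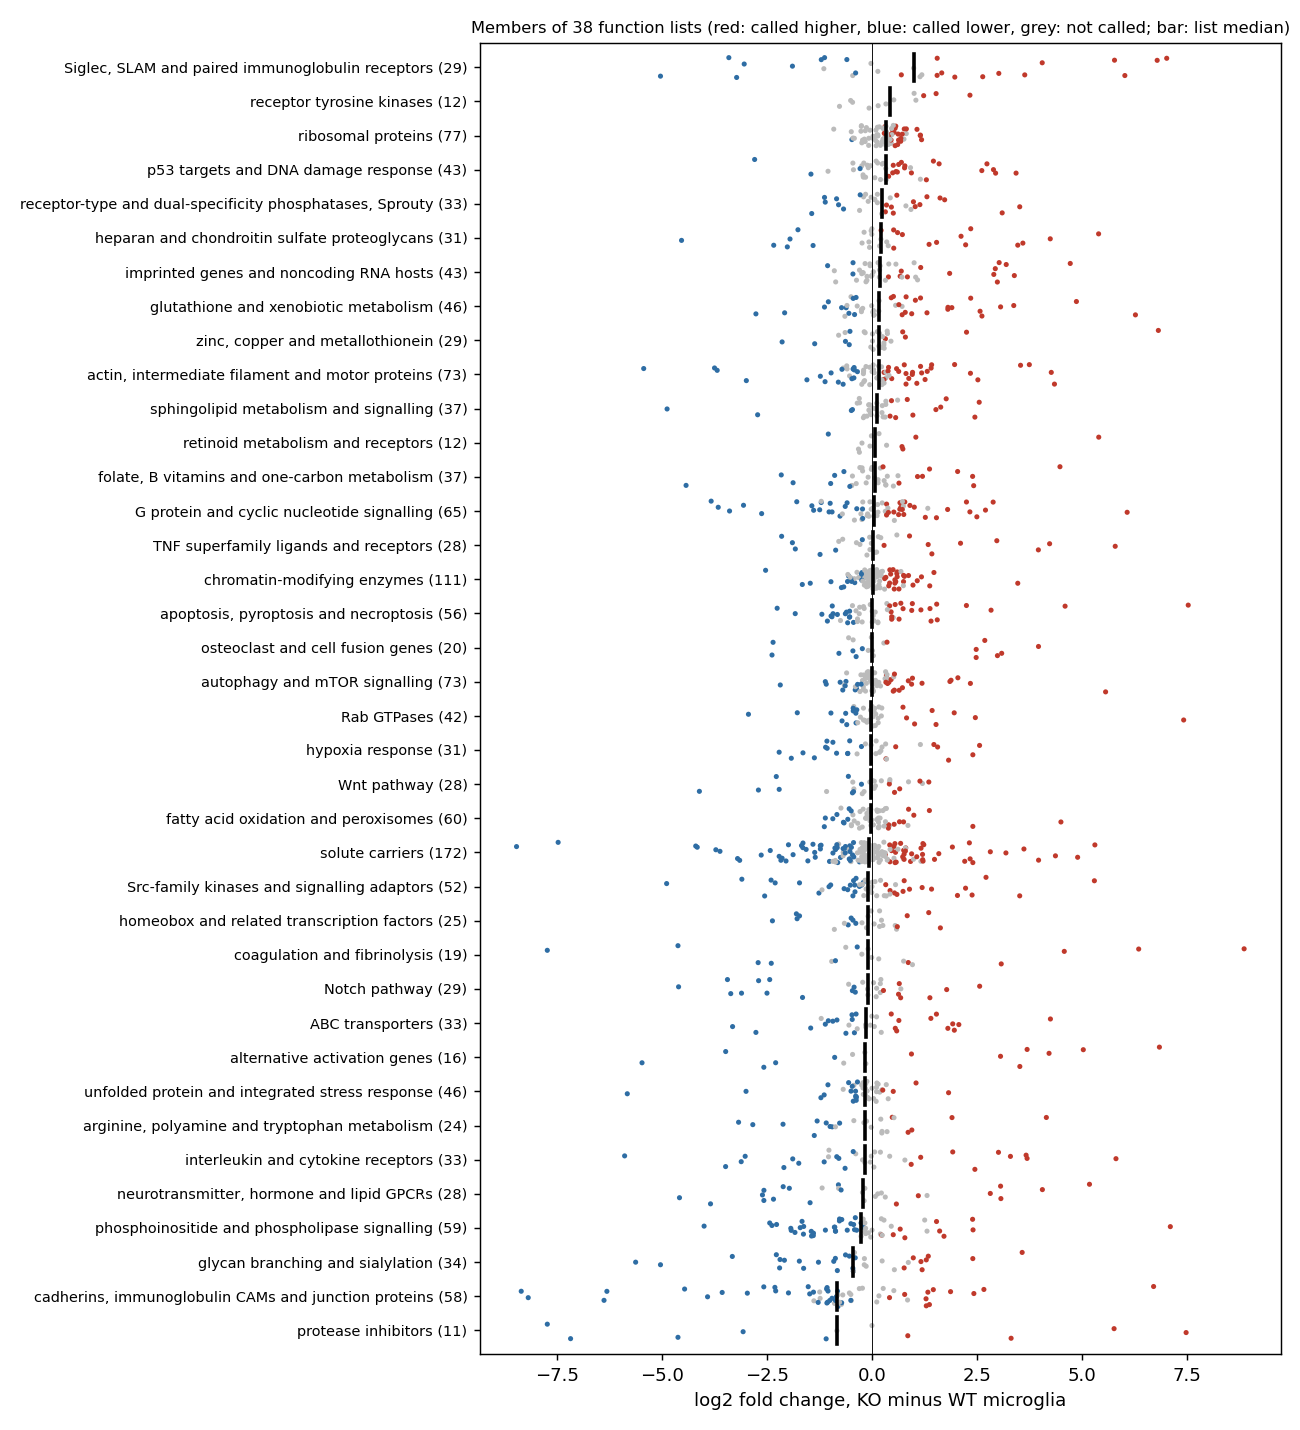
Change of each tested member of 38 function lists between KO and WT microglia (horizontal axis, log2 fold change), with 1 row per list, the number tested in brackets, red points called higher, blue points called lower and a bar at the list's median. Medians run from -0.84 for protease inhibitors and for the adhesion and junction list to 0.98 for Siglec, SLAM and paired receptors.

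Among cell adhesion and junction genes, more fell than rose. Of 58 tested genes of cadherins, immunoglobulin-type adhesion molecules and junction proteins, 29 fell and 11 rose (69.0% called, median log2 -0.84). Tjp1, the scaffold ZO-1 beneath tight junctions, was at 2435, 2646 and 2251 in WT and 24.6, 29.5 and 30.5 in KO libraries (log2 -6.39 ± 0.35, adjusted p = 7.09e-10). The falls included Jam3 (from 64.5 ± 24.1 to 3.25 ± 1.45), Cdh23 (from 338 ± 52.5 to 3.37 ± 1.48) and Fat3 (from 1436 ± 154 to 64.2 ± 11.3) beside F11r and Jam2; these 3 were chosen after their values were seen. Among these 29, 13 were of gamma protocadherins, whose transcripts share 3' exons and cannot be counted independently. Without them, 16 of 38 genes fell and 11 rose (median -0.51). Vcam1, which binds the integrin VLA-4, went the other way, at 27.3, 19.3 and 42.4 in WT and 2577, 3067 and 3542 in KO libraries.

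Enzymes that build cell-surface sugars changed in both directions. Of 34 genes of glycan branching and sialylation, 18 fell and 8 rose (76.5% called, median -0.45). St3gal5, which makes the ganglioside GM3, was at 549, 523 and 570.3 in WT and 8.84, 12.8 and 8.84 in KO libraries (log2 -5.64 ± 0.60, adjusted p = 1.57e-06). Gcnt2, which branches poly-lactosamine chains, was at 137, 104 and 125 in WT and 3.93, 2.95 and 1.61 in KO libraries, and Mgat4a, which branches N-glycans, at 2416, 2483 and 2275 in WT and 515, 479.8 and 473 in KO libraries. St3gal1, which sialylates core O-glycans, instead rose and stood at 28.2, 34.8 and 41.4 in WT and 428, 426 and 403 in KO libraries. Genes of heparan and chondroitin sulfate proteoglycans rose more often than they fell, with 14 of 31 higher and 6 lower (64.5%, median 0.21). The transmembrane proteoglycans Sdc4 and Sdc3 rose, Sdc4 to 1213, 1511 and 1544 from 104, 55.4 and 70.4 and Sdc3 to 4993, 4571 and 4869.6 from 390.4, 329.8 and 496. Of the sulfotransferases that place 3-O-sulfate, Hs3st1 was at 54, 45.2 and 57.9 in KO libraries against 1 WT read, a ratio of 152 (95% counting interval 26.9 to 6030.1), and Hs3st3b1 fell from 38.8, 52.8 and 82.8 to 2.95, 0.983 and 0.804.

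Genes of protease control split in direction. Of 11 tested protease inhibitors, 5 fell and 4 rose (81.8%, median -0.84), and of 19 coagulation and fibrinolysis genes, 6 fell and 5 rose (57.9%, median -0.10). Serpine2 and Spint1, described above, were among the falls. Pros1, which encodes protein S, an anticoagulant that also bridges dying cells to phagocyte receptors, was at 1681, 1577 and 1258 in WT and 740.5, 842 and 859 in KO libraries. Pf4, platelet factor 4 and a border macrophage marker, rose to 516, 611 and 718 from 1 read in the WT libraries together, a ratio of 1431 (95% counting interval 257 to 56559).

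Receptors that tune leukocyte activation shifted by member. Of 29 Siglec, SLAM and paired immunoglobulin receptors, 13 rose and 9 fell (75.9%, median 0.98). Slamf7, a self-binding receptor of the SLAM family, was at 2.64, 1.29 and 2.07 in WT and 338, 394 and 409 in KO libraries (log2 7.01 ± 0.18, adjusted p = 1.07e-13). The activating receptor genes Pilrb1 and Pilrb2 rose, Pilrb1 to 145, 158 and 175 from 2 WT reads, a ratio of 231 (95% counting interval 63.7 to 1915), and Pilrb2 to 116.9, 124 and 115 from 3, a ratio of 116.6 (95% counting interval 39.6 to 568). As near-identical copies they may share reads. Siglecf fell from 96.9, 119.8 and 127 to 4.91, 2.95 and 0.804. Cd84 of the SLAM family was among those that hardly changed, at 1643, 1596 and 1379 in WT and 1443, 1621 and 1443 in KO libraries (log2 -0.03 ± 0.08).

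Cytokine receptors and their regulators included 12 falls and 9 rises of 33 (63.6%, median -0.18). Il7r, the interleukin 7 receptor, was at 171, 204 and 229.8 in WT and 1.96, 3.93 and 1.61 in KO libraries (log2 -5.90 ± 0.30, adjusted p = 3.19e-10), and Il1rl2, the interleukin 36 receptor, at 403, 432 and 362 in WT and 32.4, 43.3 and 28.9 in KO libraries. Socs3, which feeds back on cytokine signals, was at 554, 407 and 439.9 in WT and 69.7, 37.4 and 54.7 in KO libraries. Epor, the erythropoietin receptor, rose and stood at 6.17, 3.87 and 0 in WT and 161, 183 and 203 in KO libraries. In the TNF superfamily, 9 of 28 rose and 6 fell (53.6%, median 0.02). Tnfsf18, the ligand of GITR, was at 5.29, 0 and 1.03 in WT and 98.2, 127 and 168 in KO libraries, and Traf1, a signalling adaptor, at 7.05, 2.58 and 3.1 in WT and 68.7, 104 and 104 in KO libraries. Tnfrsf21, death receptor 6, was at 984, 869.6 and 848 in WT and 266, 228 and 261 in KO libraries. Tnfrsf1b, TNF receptor 2, was nearly level at 1478, 1483 and 1345 in WT and 1458, 1354 and 1422 in KO libraries (log2 -0.02 ± 0.08).

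Of 28 receptors for transmitters, hormones and lipids, 11 fell and 7 rose (64.3%, median -0.22), or 4 with the minimum level asked of the microglia libraries alone. Vipr1, a receptor for vasoactive intestinal peptide, was at 103, 95.3 and 71.4 in WT and 4.91, 3.93 and 7.23 in KO libraries, Adora3 for adenosine at 238, 225 and 183 in WT and 20.6, 47.2 and 43.4 in KO libraries and Hrh2 for histamine at 98.7, 95.3 and 59 in WT and 9.82, 20.6 and 10.4 in KO libraries. Ptger4, a receptor for prostaglandin E2, rose instead and was at 11.5, 11.6 and 26.9 in WT and 298, 264 and 249.99 in KO libraries. Downstream, cyclic nucleotide and G protein genes were split 22 higher and 19 lower of 65 (63.1%). Pde7b, a phosphodiesterase that degrades cyclic AMP, was at 0.881, 1.29 and 2.07 in WT and 182, 129.8 and 166 in KO libraries, Adcy3, an adenylyl cyclase, at 57.3, 32.2 and 42.4 in WT and 283, 324 and 360.1 in KO libraries, and Gna15, a Gq-class alpha subunit, at 1296, 1287 and 1123 in WT and 104, 71.8 and 82.8 in KO libraries. Pde7b and Adcy3 thus rose and Gna15 fell.

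In membrane lipid signalling more genes fell than rose. Of 59 genes of phosphoinositide and phospholipase signalling, 31 fell and 10 rose (69.5%, median -0.27). Rasgrp3, which activates Ras in response to diacylglycerol, was at 1604, 1619 and 1352 in WT and 100.2, 88.5 and 92.4 in KO libraries (log2 -4.01 ± 0.17, adjusted p = 2.82e-11). Plcd1, a phospholipase C, was at 107, 102 and 79.7 in WT and 19.6, 10.8 and 21.7 in KO libraries, and Prkca, protein kinase C alpha, at 724, 718 and 651 in WT and 132.6, 142 and 154 in KO libraries. Among the other falls, chosen after their values were seen, were Plcg2 (from 1645 ± 40.9 to 499 ± 2.65), the phospholipase C gamma of immune receptors, and Inpp5d (from 5820.0 ± 303 to 1824 ± 140.8), the phosphatase SHIP1. Pla2g7, which hydrolyses platelet-activating factor, went far the other way, at 2.64, 5.15 and 4.14 in WT and 674, 627 and 697 in KO libraries (log2 7.10 ± 0.16, adjusted p = 2.85e-14).

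Cytoskeletal genes changed in both directions. Of 73 actin, filament and motor genes, 27 rose and 17 fell (60.3%, median 0.15). The motor Myo5a was at 233.5, 237 and 247 in WT and 4766, 4349 and 4718 in KO libraries (log2 4.26 ± 0.07, adjusted p = 1.71e-15), the nonmuscle myosin Myh10 at 173, 108 and 113 in WT and 1436, 1482 and 1561 in KO libraries and the actin-severing Gsn at 15, 15.5 and 6.21 in WT and 284, 218.3 and 249.99 in KO libraries. Of 52 Src-family kinases and adaptors, 20 fell and 15 rose (67.3%). Yes1 was at 209.7, 273 and 241 in WT and 8.84, 4.92 and 8.04 in KO libraries, Pag1, an adaptor that restrains Src kinases, at 4624, 4892 and 4187 in WT and 514, 513 and 558 in KO libraries, and both fell, while the adaptor Dok2 rose and was at 6.17, 2.58 and 5.17 in WT and 214, 212 and 205 in KO libraries. Tyrobp, the adaptor DAP12 of many microglial receptors, was level at 1105, 949.5 and 1049 in WT and 1013, 949.8 and 1054 in KO libraries (log2 -0.04 ± 0.13).

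Of 33 genes of receptor-type and other tyrosine phosphatases, dual-specificity phosphatases and Sprouty proteins, 13 rose and 7 fell (60.6%). Ptpn22, which dampens antigen-receptor signals, was at 20.3, 24.5 and 31 in WT and 238, 208 and 215 in KO libraries, and Dusp1, which switches off MAP kinases, at 842, 857 and 1044 in WT and 2519.9, 1971 and 2268 in KO libraries. Both were called higher. Ptpn6, the phosphatase SHP-1, was not called (log2 -0.21 ± 0.10).

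Among developmental pathways, 11 of 29 Notch genes fell and 7 rose (62.1%, median -0.11). Notch4 was at 115, 109.5 and 100.4 in WT and 1.96, 4.92 and 4.02 in KO libraries, Numb, an inhibitor of Notch, at 1963, 1907 and 1803 in WT and 181, 158 and 178 in KO libraries, and Dtx4, a ubiquitin ligase of the pathway, at 1844, 1972 and 1324 in WT and 182, 147 and 159 in KO libraries. Rbpj, the DNA-binding partner of Notch, rose and was at 237, 215 and 219 in WT and 758, 837 and 707 in KO libraries. Notch1 rose by only log2 0.26 ± 0.08. Wnt pathway genes were called in 13 of 28 cases, 8 lower and 5 higher (46.4%), a share near that of all genes. Fzd4, a Wnt receptor, fell from 148, 147 and 83.8 to 2.95, 6.88 and 10.4, and the corepressor Tle3 from 1259, 1416 and 1107 to 260.2, 289 and 258. Receptor tyrosine kinases and neuropilins were called in 3 of 12 cases, all higher. Nrp1 and Nrp2, coreceptors for semaphorins and VEGF, were at 1179, 1159.5 and 999 in WT and 3135, 3046 and 3369 in KO libraries and at 506, 506 and 437 in WT and 996, 1194 and 1200.1 in KO libraries. Of 25 homeobox and related factors, 8 fell and 4 rose (48.0%). Zfhx3 was at 8368, 8776 and 7315 in WT and 2449, 2257 and 2256 in KO libraries, Hhex at 455, 380.1 and 354 in WT and 134, 106 and 115 in KO libraries, and Hlx, which rose, at 129, 169 and 188 in WT and 498, 477 and 507 in KO libraries.

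Many chromatin-modifying enzymes hardly changed. Of 111 tested, 71 were not called and 61 had an interval inside 0.5 log2 units of no change (36.0% called, with 25 higher and 15 lower). Kmt2d, a histone methyltransferase, was at 4498, 4981 and 4689 in WT and 4916, 4336 and 3829 in KO libraries (log2 -0.12 ± 0.10). Dnmt1, the maintenance DNA methyltransferase, rose and was at 341, 359 and 361 in WT and 803, 776 and 813 in KO libraries, and Tet1, which oxidises methylcytosine, fell and was at 147, 175 and 79.7 in WT and 19.6, 16.7 and 28.1 in KO libraries. Of 43 genes of p53 targets and DNA damage, 18 rose and 3 fell (48.8%, median 0.32), the falls numbering 1 with Ddx3y as a covariate. Plk2, a stress-induced kinase, was at 67, 47.7 and 61.1 in WT and 526, 422 and 412 in KO libraries and Pmaip1, the cell-death protein Noxa, at 25.6, 20.6 and 58 in WT and 236, 192 and 215 in KO libraries. The rises also held genes of DNA copying and repair, such as Chek1 (from 3.74 ± 1.61 to 10.7 ± 4.39), chosen after its values were seen. Plk3 was the largest fall, from 291, 225 and 233.9 to 42.2, 32.4 and 30.5.

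The unfolded protein and integrated stress response list fell more than it rose, with 15 of 46 lower and 4 higher (41.3%, close to all genes; median -0.17). Phgdh, the first enzyme of serine synthesis, was at 65.2, 47.7 and 56.9 in WT libraries and at 0 reads in all KO libraries, at least 61.3-fold lower. Nupr1, a stress-induced nuclear protein, was at 106, 63.1 and 90 in WT and 13.7, 8.85 and 7.23 in KO libraries. The chaperone Hsp90b1 changed by log2 -0.17 ± 0.08 and was not called. In the hypoxia response 13 of 31 genes fell and 7 rose (64.5%), though 4 rose without KO replicate 1 or without WT replicate 1 or 2. The glucose transporter Slc2a1 was at 182, 179 and 210.1 in WT and 45.2, 37.4 and 37.8 in KO libraries and the glycolytic activator Pfkfb3 at 1267, 1386 and 1497 in WT and 483, 395 and 441 in KO libraries, while Slc2a3, another glucose transporter, was at 41.4, 27.1 and 34.2 in WT and 149.3, 194 and 207 in KO libraries. The glucose transporters thus moved in opposite directions, Slc2a1 down and Slc2a3 up.

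Of 46 genes of glutathione and xenobiotic metabolism, 20 rose and 10 fell (65.2%, median 0.16); 6 fell without KO replicate 1. Ahr, the aryl hydrocarbon receptor, was at 0.881, 1.29 and 1.03 in WT and 168, 150.4 and 155 in KO libraries, with 3 WT reads in all, a ratio of 148 (95% counting interval 50.3 to 719). Its targets Ahrr, a repressor, and Tiparp rose as well, Ahrr from 12.2 ± 6.21 to 61.9 ± 4.23 and Tiparp from 107 ± 2.29 to 264 ± 16.8, both chosen after their values were seen. Other targets of Ahr were not counted, and its activity was not tested. Cyp27a1, which hydroxylates cholesterol, was at 239, 234.5 and 218.4 in WT and 1645, 1349 and 1268 in KO libraries, and Abcc1, which exports glutathione conjugates, fell and was at 349.9, 322 and 334 in WT and 43.2, 51.1 and 50.6 in KO libraries. Among retinoid genes, 4 of 12 rose and 1 fell (41.7%). Rara, the retinoic acid receptor alpha, was at 2.64, 2.58 and 3.1 in WT and 169.9, 145 and 158 in KO libraries (log2 5.39 ± 0.20, adjusted p = 8.35e-12), and Rxra, its partner, was level at 345, 387 and 349 in WT and 386, 311 and 369.8 in KO libraries (log2 -0.02 ± 0.12).

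One-carbon and B vitamin genes were called at a share near that of all genes, 9 of 37 higher and 7 lower (43.2%). Pdxk, which activates vitamin B6, was at 67, 82.5 and 74.5 in WT and 422, 387 and 393 in KO libraries. Mthfd2, a mitochondrial folate enzyme, fell and was at 91.7, 81.2 and 64.2 in WT and 20.6, 13.8 and 16.1 in KO libraries. Of 24 arginine, polyamine and tryptophan genes, 9 fell and 5 rose (58.3%, median -0.17). Aldh18a1, of proline synthesis, was at 134, 96.6 and 103 in WT and 29.5, 18.7 and 26.5 in KO libraries and Srm, spermidine synthase, at 50.2, 68.3 and 55.9 in WT and 25.5, 18.7 and 24.1 in KO libraries. Paox, which breaks polyamines down, rose and was at 17.6, 16.7 and 15.5 in WT and 62.9, 58 and 74 in KO libraries. Fatty acid oxidation and peroxisome genes were called in 19 of 60 cases, 10 higher and 9 lower (31.7%). Acsl3, an acyl-CoA synthetase, was at 9.69, 24.5 and 22.8 in WT and 378, 429 and 452 in KO libraries and catalase, Cat, at 227, 269 and 225.6 in WT and 559.8, 608 and 690.5 in KO libraries.

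Of 37 sphingolipid genes, 10 rose and 4 fell (37.8%). S1pr2, a receptor for sphingosine 1-phosphate, was at 43.2, 27.1 and 17.6 in WT and 143, 172 and 182 in KO libraries, and Spns2, which exports that lipid, at 145, 143 and 167 in WT and 2.95, 4.92 and 4.82 in KO libraries (log2 -4.89 ± 0.27, adjusted p = 7.91e-10). The receptor rose and the exporter fell. Sgpl1, which degrades the lipid, was level (log2 0.02 ± 0.09). Of 29 zinc, copper and metallothionein genes, 5 rose and 5 fell (34.5%); 3 rose without WT replicate 3, and 3 fell without KO replicate 1 or 2. Cp, the copper carrier ceruloplasmin, was at 6.17, 9.02 and 21.7 in WT and 1372, 1177 and 1432 in KO libraries (log2 6.81 ± 0.29, adjusted p = 3.87e-11), and Mt1, metallothionein 1, at 62.6, 42.5 and 32.1 in WT and 246, 186 and 209.8 in KO libraries.

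Membrane transporters changed in both directions. Of 172 solute carriers, 48 fell and 39 rose (50.6%, median -0.08). Slc2a5, a fructose transporter and microglia marker, was at 1586, 1634 and 1508 in WT and 2.95, 1.97 and 6.43 in KO libraries. Slc12a5, a potassium-chloride cotransporter of neurons, was at 4.41, 5.15 and 6.21 in WT and 217, 299.9 and 223 in KO libraries. Neuron markers rose with it, as did 4 of 5 tested astrocyte markers, while Slc1a3 and the sum of the astrocyte markers fell. The part of neurons and astrocytes in the rise of Slc12a5 was not tested. Slc8a1, a sodium-calcium exchanger, was level at 998, 1189 and 950.1 in WT and 1048, 1052 and 1052 in KO libraries (log2 0.01 ± 0.13). Of 33 ABC transporters, 12 fell and 11 rose (69.7%). Abcb4, a phospholipid exporter, was at 426, 406 and 342 in WT and 139, 132 and 150 in KO libraries, and Abca9 was level at 4867, 4933 and 4162 in WT and 4095, 4107 and 4297 in KO libraries.

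For vesicle traffic, shares were near that of all genes. Of 42 Rab GTPases, 11 fell and 8 rose (45.2%; 5 rose with Ddx3y as a covariate). Rab27a, of secretory granules, was at 263, 308 and 347 in WT and 54, 33.4 and 31.3 in KO libraries, and Rab7b, a late endosomal Rab, rose and was at 3.53, 0 and 5.17 in WT and 499.9, 552 and 501 in KO libraries (log2 7.41 ± 0.45, adjusted p = 2.2e-09). Of 73 autophagy and mTOR genes, 20 rose and 11 fell (42.5%, the same share as all genes). Tfec, a factor of the MiT/TFE family that governs lysosomal genes, was at 1.76, 2.58 and 3.1 in WT and 175, 132.7 and 178 in KO libraries, and Rps6ka1, a growth-signal kinase, fell and was at 1969, 1965 and 1994 in WT and 456, 397 and 444 in KO libraries. Nbr1, a cargo receptor of autophagy, was level (log2 0.06 ± 0.10). In cell death genes, 19 of 56 rose and 16 fell (62.5%). Zbp1, which senses Z-form nucleic acid and starts necroptosis, was at 8.81, 7.73 and 33.1 in WT and 372, 322 and 338 in KO libraries, and Nlrc5, the MHC class I transactivator, at 95.2, 102 and 123.2 in WT and 817, 741 and 722 in KO libraries. Nlrp1b, an inflammasome sensor, fell and was at 884, 922 and 907 in WT and 210.2, 193 and 162 in KO libraries.

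Genes of alternative activation and of osteoclasts changed in both directions. Of 16 alternative activation genes, 7 rose and 5 fell (12 of 16 called, median -0.17). Mgl2, a galactose-type lectin, was at 6.17, 10.3 and 4.14 in WT and 898, 802 and 862 in KO libraries (log2 6.84 ± 0.21, adjusted p = 1.01e-12), and the chemokine Ccl24 at 3.53, 3.87 and 7.24 in WT and 171, 191 and 189 in KO libraries. Tgm2, a transglutaminase, fell and was at 419, 371 and 335 in WT and 13.7, 6.88 and 4.02 in KO libraries (log2 -5.49 ± 0.30, adjusted p = 7.82e-10). Il4ra, the interleukin 4 receptor, was level at 913, 822 and 692 in WT and 807, 643 and 689 in KO libraries (log2 -0.18 ± 0.11). Of 20 osteoclast and fusion genes, 7 rose and 6 fell (65.0%). Jdp2 was at 50.2, 42.5 and 62.1 in WT and 284, 346 and 243 in KO libraries and Tspan7 at 383, 381 and 332 in WT and 59.9, 72.8 and 74.8 in KO libraries, the first higher and the second lower in KO cells.

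Ribosomal protein genes shifted by small steps. Of 77 tested, 25 rose and 1 fell (33.8%, median 0.32), and none reached 4-fold; 15 rose with Ddx3y as a covariate and 16 without KO replicate 3. Rpl38 was at 27.3, 25.8 and 36.2 in WT and 53, 77.7 and 70.7 in KO libraries and Rpl3, the fall, at 197, 171 and 174 in WT and 127, 135 and 124 in KO libraries. Together they took 0.179% to 0.212% of normalized counts in WT and 0.235% to 0.261% in KO libraries (exact permutation p = 0.1, the smallest possible). Of 43 imprinted genes and noncoding hosts, 13 rose and 3 fell (37.2%, median 0.17); 7 fell without KO macrophage replicate 1. Meg3, an imprinted noncoding RNA abundant in neurons, was at 22, 15.5 and 13.5 in WT and 399.7, 623 and 395 in KO libraries, and Neat1, the scaffold of paraspeckles, at 755, 864 and 1363 in WT and 3826, 3503 and 3061 in KO libraries. Other rises of that list, such as Peg3 (from 3.34 ± 1.71 to 34.9 ± 17) and Snhg11 (from 2.78 ± 0.288 to 41.3 ± 20.7), chosen after their values were seen, are of neuronal transcripts as well. Neuron markers rose beside them, Map2 from 10.6, 12.9 and 6.21 to 44.2, 58 and 41.8 and Rbfox3 from 0.881, 1.29 and 2.07 to 18.7, 20.6 and 16.9, and their part in these rises was not tested.

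Some genes with large changes lay side by side on the chromosome. Runs of at least 3 adjacent tested genes that all changed at least 4-fold the same way numbered 30 among the rises, with 111 genes, and 18 among the falls, with 72. Such a change was called in 6.53% (higher) and 4.55% (lower) of all tested genes. How many runs these shares alone would give was not tested. The longest run of rises was of 8 genes in the Ms4a cluster (chromosome 19, 11301249 to 11531256). It began with Ms4a14, with Ms4a7 at 7.05, 1.29 and 6.21 in WT and 3038, 2743 and 2651 in KO libraries, and with Ms4a4a, which had no WT read and stood at 512, 537 and 697 in KO libraries, at least 545-fold higher. It ended with Ms4a6b at 254, 281 and 209 in WT and 1090.1, 1056 and 999.96 in KO libraries. The adjacent Ms4a6d was not called, at 200.9, 184 and 172 in WT and 229, 195 and 216 in KO libraries (log2 0.20 ± 0.14). Within the Ms4a run, BE692007 was at 0 in all WT libraries and at 7.86, 5.9 and 11.3 in KO libraries. Whether so low a gene reaches 4-fold depends on the value added before the logarithm, and the length of its run depends on it too. Genes of the runs were named after their values were seen. A run of 7 genes held part of the Ifi200 family (chromosome 1, 173723427 to 174031810), with Ifi207 at 15, 20.6 and 38.3 in WT and 2808, 2666 and 2619 in KO libraries. Ifi211 of this run was at 0.881, 1.29 and 5.17 in WT and 191, 199 and 217.8 in KO libraries. Ifi206, Ifi214, Ifi213 and Ifi209 formed a separate run of 4 rises nearby (173468485 to 173647928). Ifi208, which lies between these runs, was not called. A run of 5 held the interferon-induced Ifitm genes on chromosome 7 (140941391 to 141017924), among them Ifitm2 at 0, 2.58 and 2.07 in WT and 406, 330.4 and 351 in KO libraries. The longest run of falls, 12 genes on chromosome 3 (51685907 to 52105076), was of Maml3, a Notch coactivator, and 11 short predicted or cDNA-named transcripts at the same locus, with changes of -3.26 to -2.11. In such runs, also at Cacnb2 with 7 and Ank2 with 5, separate transcripts and reads of 1 transcript counted under several names cannot be told apart. Within 5 Mb of Tgfbr2, 26 of 48 genes were called (54.2%), 13 higher and 13 lower. Within 5 Mb of Cx3cr1, it was 29 of 62 (46.8%), 13 higher and 16 lower. The shares over all tested genes were 42.5% called, 21.9% higher and 20.6% lower, and a local effect was not tested.

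**Figure D5:**
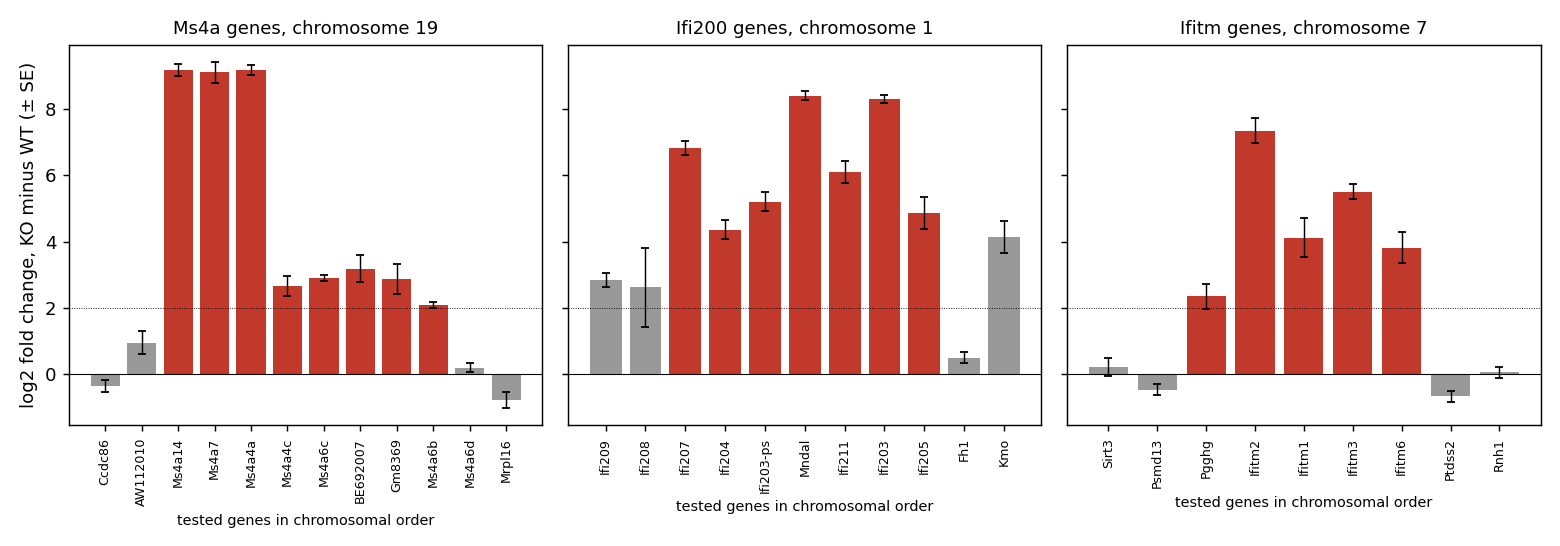
Change between KO and WT microglia (vertical axis, log2 fold change ± SE) of tested genes in chromosomal order across the Ms4a, Ifi200 and Ifitm runs, with red bars for genes of the run, grey bars for the 2 tested neighbours on each side, and a dotted line at 4-fold. In the Ms4a panel the bars drop from 9.17 for Ms4a14 to 0.20 for Ms4a6d. In the Ifi200 panel the neighbours Ifi209, Ifi208 (not called) and Kmo also lie above the dotted line. Bars of genes without a WT read depend on the value added before the logarithm.

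Since the Ifi200 genes moved together, the interferon-response motif was looked up in their promoters, a choice made with the values in view. In the run of 7 genes, 5 had a promoter in the table, and all 5 held the letters within 250 bases of a start. The letters stood in 3.53% of all tested genes with a promoter. They stood in 10.5% of those called at least 4-fold higher, the class from which this run was taken. Windows of 60 bases around the match (capitals) are shown for 4 genes, on the strand of the gene.
Ifi207, chr1:173741816-173741875, minus strand: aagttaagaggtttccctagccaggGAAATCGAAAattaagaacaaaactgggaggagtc
Mndal, chr1:173880189-173880248, minus strand: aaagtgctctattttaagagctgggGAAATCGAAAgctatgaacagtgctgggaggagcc
Ifi211, chr1:173913049-173913108, minus strand: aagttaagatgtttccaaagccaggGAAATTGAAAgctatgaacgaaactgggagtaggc
Ifi205, chr1:174031855-174031914, minus strand: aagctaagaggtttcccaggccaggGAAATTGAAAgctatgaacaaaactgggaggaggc
The match began 41 bases before the start in Ifi207, 36 in Mndal, 37 in Ifi211 and 134 in Ifi205. Ifi203 had the same 60 bases as Mndal at 1 of its starts, so these windows are not independent cases.

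A few genes had reads in only 1 of the groups. With a KO mean of at least 50, 5 genes had no WT read, among them Ccl8, a chemokine, at 112, 84.6 and 106, at least 94.4-fold higher, and Cd300ld4 at 45.2, 67.8 and 56.3, at least 52.8-fold higher. Another 34 genes had 1 to 3 WT reads. In the other direction, 7 genes with a WT mean of at least 50 had no KO read, among them Chst8, a sulfotransferase, at 72.3, 58 and 65.2, at least 70.6-fold lower, and 12 had 1 to 3. Ccl8, Cd300ld4 and Chst8 were chosen after their values were seen.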

How the data were processed

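RNA was amplified with a SMARTer Stranded Total RNA-seq Pico kit, per the labels' protocols, and bcl2fastq, CASAVA, STAR and mouse genome build 38 are named in the submitters' processing notes, which give no versions; no source used here gives the counter or its strand setting. The authors deposited log2 values of normalized counts plus 1 for 25904 genes in 12 libraries. Undoing the logarithm and dividing by the smallest step gave whole reads in 100.0% of 310848 values, to within 0.01 reads, which gave the depth of each library. Gene symbols were found for 25730 identifiers.

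Genes at 10 or more normalized counts in at least 3 of 12 libraries (12519) were fitted with limma 3.58.1 in R 4.3.3 on the deposited log2 scale, with 4 group means and 8 residual degrees of freedom, trended empirical Bayes and Benjamini-Hochberg adjustment at 0.05. Changes are KO minus WT ± SE on log2(normalized count + 1), which understates changes of low genes. A fold against a group at 0 reads was set against 3 reads over the group, and ratios with 1 to 3 reads carry exact 95% intervals; both cover counting error only. The fit was tested on simulated data. Replicates were numbered in accession order.

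The members and lists were chosen with earlier results of these data known. Genes were named by rule: the 12 largest rises and falls with non-overlapping libraries and a higher mean of at least 100, outside the marker lists and genes whose changes were already known, and without predicted, mitochondrial or pseudogene symbols; from each list, up to 3 called members of the commoner direction and 1 of the opposite one, with non-overlapping libraries and a mean of at least 50; the 6 largest gains and losses in mean among called genes; and per list the most abundant member whose interval lay within 0.5 of 0. Other named genes are marked. Alternatives were the pseudocount, the filter, scaling, limma-voom on whole reads, microglia alone, robust variances, Ddx3y as a covariate and leaving out libraries. Results of some genes and of 1 gene list are not reported here.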

Additional observations from a re-analysis of the deposited data

Results flagged for a closer look

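For 12 genes, the KO effect differed between microglia and marrow-derived macrophages by a test of the difference itself (limma interaction term, Benjamini-Hochberg adjusted over all 12519 tested genes; 3 libraries in each of 4 groups). Values are the log2 effect in macrophages minus that in microglia ± SE. Among the rises of microglia the difference was -8.92 ± 0.26 for Ms4a14 (adjusted p = 4.87e-12), -8.24 ± 0.19 for Mndal (3.73e-13) and -7.84 ± 0.47 for Aoah (1.37e-08). It was -6.57 ± 0.46 for Cd93 (7.87e-08), -5.71 ± 0.26 for Vav3 (6.87e-10) and -4.56 ± 0.85 for Cd55 (0.00101). Among the falls it was 9.06 ± 0.74 for Csmd3 (4.19e-07), 7.75 ± 0.79 for Jam2 (3.51e-06) and 7.40 ± 0.91 for Mrc2 (2.52e-05), all 3 nearly absent from macrophages of either genotype. It was 6.52 ± 0.56 for Cd34 (6.99e-07), 5.30 ± 0.35 for Lhfpl2 (4.61e-08) and 5.15 ± 0.61 for F11r (1.61e-05), which fell in both origins. The genes were chosen as the largest changes in microglia, so a smaller effect in macrophages is partly fixed by the choice.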

How the results depend on the processing

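Of 181 called genes taken by the naming rule, 175 kept their call under every setting and none reversed. Of the called genes, Ddah2, Slc39a12, mt-Rnr1, mt-Rnr2 and Lncpint lost their call with Ddx3y as a covariate. Each of these and Malat1 lost it in at least 1 of the 6 fits without a microglia library, Malat1 in 4. Lncpint also lost it with robust variances. With Ddx3y as a covariate, 4464 of 5322 calls (83.9%) kept their direction and call. Leaving out each microglia library in turn gave 2403 to 2585 genes higher and 2188 to 2408 lower, and 784 to 823 and 545 to 573 at 4-fold. Without KO macrophage replicate 1, 3102 were higher and 3002 lower. A pseudocount of 5 gave 520 genes at least 4-fold higher against 817, since it shrinks changes of low genes. Scalings moved the median of all genes by less than 0.1. The adhesion list without gamma protocadherins was chosen after seeing the data, as was the check for overlapping exons. No paired analysis was possible because the labels carry no replicate numbers. With 3421859 to 5916933 reads a library, genes under about 10 normalized counts were not tested.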
